A study of Mus musculus with 6 samples.

Results

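The inflammatory cytokine genes described here are Il1a, Il1b, Il1rn, Il18, Tnf, Il6, Osm, Il12a, Il12b and Il23a, which belong to the IL-1, TNF, IL-6 and IL-12 families. They were taken by gene name from the non-control probes of 6 mouse arrays, which gave 16 probes for the 10 genes out of 56605 probes in all. A probe was used where it stood well above background on the 2 arrays of any 1 cell fraction; 14 of the 16 did, so that 9 of the 10 genes were tested among 20813 genes, and Il23a was not. The arrays compared dendritic cell and macrophage subsets from BALB/c mice (an inbred strain) whose sublingual mucosa had been painted repeatedly with FITC, a fluorescent dye that acts as a contact sensitiser. All 3 fractions came from painted mice, and no unpainted group is among the arrays. Fr1 was sorted as CD11c+CD206- cells, Fr2 as CD11c-F4/80+CD206- cells and Fr3 as F4/80+CD206hi cells, with 2 arrays each. CD11c is an integrin typical of dendritic cells, F4/80 a macrophage antigen and CD206 the mannose receptor of tissue macrophages. The replicates came from independent experiments, per the series design. The age and sex of the mice and the number that went into each sort are not given in the sources used here.

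IL-1 alpha and IL-1 beta act through the same receptor and switch on NF-kB and MAP kinase signalling in the cells that bind them. IL-1 beta and IL-18 are made as inactive precursors that caspase-1 cuts inside inflammasomes, while the receptor antagonist encoded by Il1rn occupies the IL-1 receptor without signalling. TNF acts through receptors of its own, and IL-6 and oncostatin M (encoded by Osm) both signal through the shared subunit gp130 and STAT3. The Il12b protein pairs with the Il12a protein to make IL-12, which drives interferon gamma production in T and NK cells, or with the Il23a protein to make IL-23, which maintains IL-17 producing T cells. Dendritic cells and macrophages are well known sources of these cytokines in barrier tissues.

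Levels below are log2 intensities relative to the 75th percentile of the same array, so a level of 0 equals that percentile and a difference of 1 is a doubling. Between 44.6% and 52.4% of the non-control spots were well above background on an array, and 0 were saturated. The Pearson correlation between the 2 arrays of a fraction, over the genes tested, was 0.883 for Fr1, 0.898 for Fr2 and 0.796 for Fr3; genes are not independent replicates. The Fr1 and Fr3 arrays shared a slide and a scan, and both Fr2 arrays lay on another slide, so whatever sets Fr2 apart from Fr1 or Fr3 cannot be told apart from an effect of the slide. Mrc1, which encodes CD206, was not well above background on either Fr1 array. It was well above background on every array of Fr2, also sorted as CD206-, and of Fr3. Its levels there were 0.64 and 0.33 in Fr2, and 3.78 and 2.67 in Fr3. Itgax, which encodes CD11c, read 2.71 and 2.35 in Fr1, 2.77 and 1.20 in Fr2, and 0.20 and 0.95 in Fr3, so the fraction sorted as CD11c-negative carried Itgax RNA at a level that overlapped Fr1. In sorted bulk cells, fewer cells of a type and less RNA per cell cannot be told apart.

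Across the family, the fraction that held a gene's highest mean level differed from gene to gene, as far as the array levels go. The Il12b, Il12a, Tnf, Il1rn and Il1a probes had their highest mean in Fr1. Osm, Il18 and Il1b had it in Fr2, and Il6 in Fr3. Both arrays of that fraction lay above all others for Il12b, Il12a, Tnf and Osm only. Il1a and Il1b were brighter in Fr1 and Fr2 than in Fr3. None of these differences passed limma's test after Benjamini-Hochberg adjustment over all genes: 0 of the 9 members were called in each comparison at an adjusted p under 0.05. Among all genes, 0.00% were called for Fr1 against Fr2, 0.00480% for Fr1 against Fr3 and 0.00480% for Fr2 against Fr3. The differences that follow are therefore descriptions of these arrays with their standard errors.

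**Figure D1:**
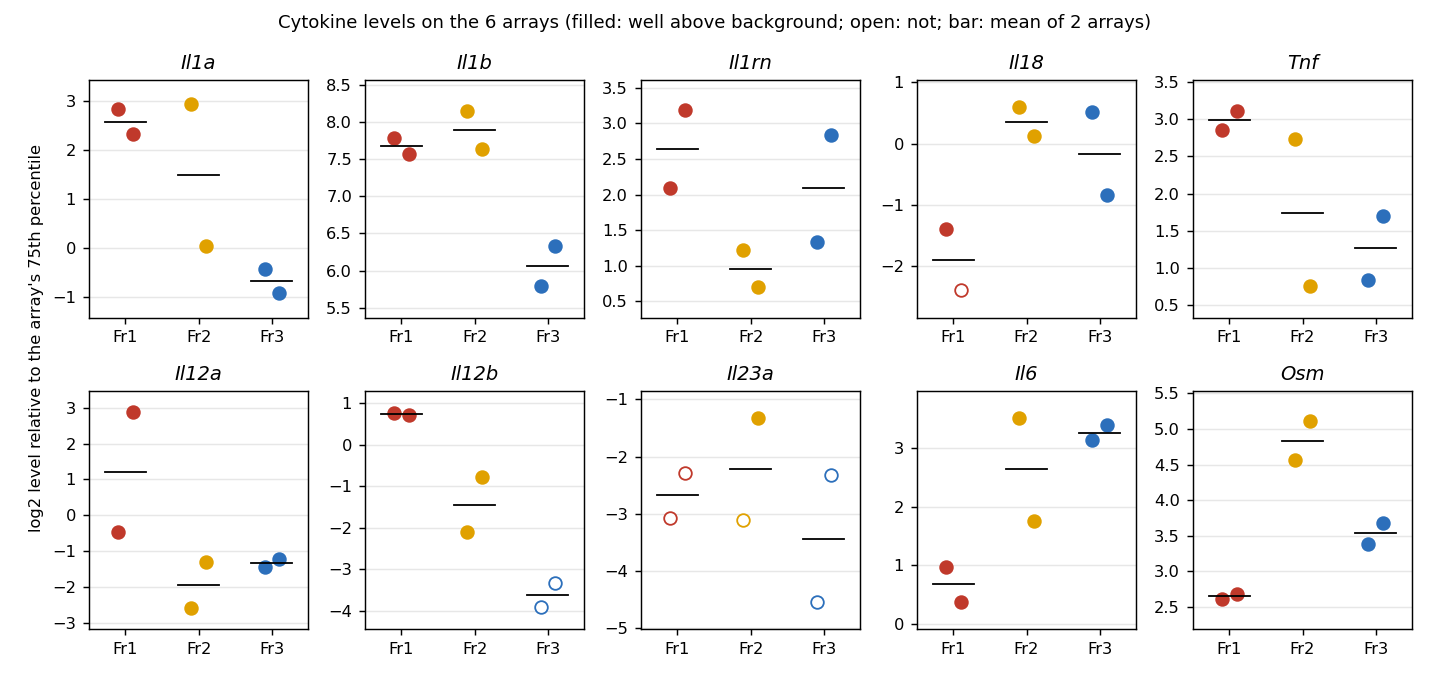
Levels of the cytokine genes on each array, as log2 intensity relative to the array's 75th percentile, with Fr1, Fr2 and Fr3 from left to right. Points are arrays, bars are means of 2 arrays and open points are arrays on which the probe was not well above background; Il12b is at 0.76 and 0.71 on the Fr1 arrays and is open on both Fr3 arrays.

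Il1b, the main secreted form of IL-1 in myeloid cells, was measured by 3 probes, and the brightest had levels of 7.79 and 7.57 in Fr1, 8.15 and 7.64 in Fr2, and 5.79 and 6.34 in Fr3. The Fr1 and Fr2 arrays overlapped, and both lay above the 2 Fr3 arrays. The difference was 1.62 ± 0.55 (SE) for Fr1 minus Fr3, with a limma adjusted p of 0.508, and 1.83 ± 0.55 for Fr2 minus Fr3, with an adjusted p of 0.401. Fr1 minus Fr2 was −0.21 ± 0.55, with an adjusted p of 0.932. This probe lies at chr2:129190347-129190406 on the minus strand of mm9, the build of the files.

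A second Il1b probe read 3.79 and 4.43 in Fr1, 4.10 and 3.49 in Fr2, and 2.26 and 3.38 in Fr3. On it, too, both Fr3 arrays were below the arrays of Fr1 and Fr2. A further Il1b probe, designed on another transcript, was dim and was not well above background on either Fr3 array. The second probe, at chr2:129190880-129190939 on the minus strand of mm9, is printed as the Il1b probe of lowest T content, with runs of 3 or more T in capitals, since T content moved with the array as given further on.
Il1b probe: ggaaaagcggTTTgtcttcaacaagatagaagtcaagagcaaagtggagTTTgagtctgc

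Il1a, which encodes the IL-1 form that is active without cleavage by caspase-1, read 2.84 and 2.33 in Fr1, 2.95 and 0.039 in Fr2, and −0.43 and −0.92 in Fr3. The 2 Fr1 arrays were alike, the Fr2 arrays spanned the whole of that range (replicate 2 minus replicate 1 was −2.91), and both Fr3 arrays were below all others. Fr1 minus Fr3 was 3.26 ± 0.96, with a limma adjusted p of 0.422, which is 9.57-fold on the linear scale. For Fr2 minus Fr3 the value was 2.17 ± 0.96 with an adjusted p of 0.575, and for Fr1 minus Fr2 it was 1.09 ± 0.96 with an adjusted p of 0.753. Fr2 minus Fr3 was 0.72 without Fr2 replicate 1 and 3.62 without Fr2 replicate 2. The probe lies at chr2:129125994-129126053 on the minus strand of mm9, close to Il1b in the same cluster.

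Il1rn, the natural antagonist of both, was measured by 2 probes. The brighter read 2.09 and 3.19 in Fr1, 1.22 and 0.70 in Fr2, and 1.34 and 2.84 in Fr3. Both Fr1 arrays were above both Fr2 arrays, while the Fr3 arrays overlapped Fr1. The difference between Fr1 and Fr2 was 1.68 ± 0.73, with a limma adjusted p of 0.522. The second probe read 0.65 and 1.00 in Fr1, −1.03 and −1.11 in Fr2, and −0.31 and −0.60 in Fr3, which puts both Fr3 arrays below both Fr1 arrays, a separation the first probe did not give. The 2 probes thus shared the order of Fr1 over Fr3 over Fr2 in their means and differed in whether Fr1 and Fr3 overlapped.

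Il18, whose product is matured by caspase-1 and acts with IL-12 to raise interferon gamma, ran the other way. It read −1.40 and −2.38 in Fr1, 0.59 and 0.12 in Fr2, and 0.52 and −0.84 in Fr3. The lower Fr1 array was not well above background, both Fr1 arrays lay below all 4 others, and Fr2 and Fr3 overlapped. Set against Fr2, Fr1 was at −2.24 ± 0.70, with a limma adjusted p of 0.424, and Fr1 minus Fr3 was −1.73 ± 0.70, with an adjusted p of 0.598. With the normexp background correction, which adds an offset of 50 to every signal, these were −0.57 and −0.43. Leaving out 1 array moved Fr1 minus Fr3 between −2.41 (without Fr3 replicate 2) and −1.05 (without Fr3 replicate 1).

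Tnf, the founding member of the TNF family, read 2.86 and 3.11 in Fr1, 2.73 and 0.75 in Fr2, and 0.83 and 1.70 in Fr3. Both Fr1 arrays were above the others, by a small margin over the higher Fr2 array, and Fr2 and Fr3 overlapped. On this probe Fr1 minus Fr2 was 1.25 ± 0.78, with a limma adjusted p of 0.633, and Fr1 minus Fr3 was 1.72 ± 0.78, with an adjusted p of 0.625. Without Fr2 replicate 2 the Fr1 minus Fr2 value was 0.26, and without Fr2 replicate 1 it was 2.24. On the second Tnf probe the levels were 2.14 and 3.46 in Fr1, 1.14 and −0.85 in Fr2, and 0.11 and 1.38 in Fr3. Fr1 again lay above the rest there, and the means of Fr2 and Fr3 stood in the opposite order, so the 2 probes gave no common order for that pair.

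Il12b, the subunit shared by IL-12 and IL-23, separated the 3 fractions most clearly by the F-test, whose unadjusted p was the smallest of the 9 members and whose limma adjusted p was 0.174. It read 0.76 and 0.71 in Fr1, −2.11 and −0.78 in Fr2, and −3.90 and −3.33 in Fr3. No fractions overlapped, the Fr1 arrays differed by little, and neither Fr3 array was well above background. Against the detection limit of the Fr3 arrays, Fr1 was at least 10.01-fold higher (measured difference 4.35 ± 0.65, limma adjusted p 0.147) and Fr2 at least 2.21-fold higher (2.17 ± 0.65, adjusted p 0.393). The limit on an array was the dimmest signal that still counted as well above background, or the probe's own signal where that was higher. Fr1 minus Fr2 was 2.18 ± 0.65, with an adjusted p of 0.403. With the normexp correction the differences were 0.95 for Fr1 minus Fr3, 0.66 for Fr1 minus Fr2 and 0.29 for Fr2 minus Fr3. The 75th percentile was at 27.4 to 44.1 intensity units on the arrays. An offset of 50 therefore shrinks the differences of dim probes by construction. The bound is given for the processed signal only, and the normexp run cannot decide whether it holds. The probe lies at chr11:44226781-44226840 on the plus strand of mm9. Without Fr3 replicate 1, the Fr1 minus Fr3 difference was 4.07 with an adjusted p of 0.0263, against 7.10% of all genes called in that setting; Il12b was the sole member called under any alternative run.

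Il12a, the partner that makes IL-12 from Il12b, read −0.47 and 2.90 in Fr1, −2.60 and −1.30 in Fr2, and −1.44 and −1.22 in Fr3. Both Fr1 arrays were above the rest but lay 3.37 apart, more than the distance from the lower of them to any Fr3 array. The difference of Fr1 from Fr2 was 3.16 ± 1.11, with a limma adjusted p of 0.460, and Fr1 minus Fr3 was 2.54 ± 1.11, with an adjusted p of 0.625. Both values rest on the Fr1 arrays: without Fr1 replicate 2 they were 1.48 and 0.86, and without Fr1 replicate 1 they were 4.85 and 4.22. With the normexp correction they were 1.19 and 1.12. The Il12a probe at chr3:68498108-68498167 on the plus strand of mm9 has the lowest T content of the 16 probes, 15%, and no run of 3 T, so it has no capitals. It is shown for the spread of its Fr1 arrays.
Il12a probe: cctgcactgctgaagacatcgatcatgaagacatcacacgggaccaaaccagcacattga

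Il23a, the partner that makes IL-23, was well above background on Fr2 replicate 2 alone. Its levels were −3.06 and −2.29 in Fr1, −3.11 and −1.32 in Fr2, and −4.55 and −2.32 in Fr3, and the fractions overlapped. It was not tested, and no fold is given.

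Il6, a cytokine of the acute phase and of T cell differentiation, read 0.97 and 0.37 in Fr1, 3.51 and 1.75 in Fr2, and 3.14 and 3.38 in Fr3. Both Fr1 arrays were below all 4 others, the Fr3 arrays were alike, and the Fr2 arrays lay on either side of them. Fr1 minus Fr3 was −2.59 ± 0.72, with a limma adjusted p of 0.392, and Fr1 minus Fr2 was −1.96 ± 0.72, with an adjusted p of 0.469. Fr1 minus Fr2 was −1.08 without Fr2 replicate 1 and −2.84 without Fr2 replicate 2. Fr2 minus Fr3 was −0.63 ± 0.72, with a limma adjusted p of 0.762, and it was 0.25 without Fr2 replicate 2. A second Il6 probe was dim: it read −4.06 and −1.37 in Fr1, −1.98 and −3.28 in Fr2, and −1.73 and −1.14 in Fr3, with 1 array each of Fr1 and Fr2 not well above background. On this dim probe Fr1 overlapped both Fr2 and Fr3, whereas on the brighter probe it overlapped neither.

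Osm, a gp130 cytokine that myeloid cells release and stromal cells respond to, was highest in Fr2. It read 2.62 and 2.68 in Fr1, 4.56 and 5.11 in Fr2, and 3.39 and 3.68 in Fr3. No fractions overlapped, and the order of Fr2 over Fr3 over Fr1 held on every array. Fr1 minus Fr2 was −2.18 ± 0.54, with a limma adjusted p of 0.335, Fr2 minus Fr3 was 1.30 ± 0.54, with an adjusted p of 0.555, and Fr1 minus Fr3 was −0.88 ± 0.54, with an adjusted p of 0.639. The other Osm probe was not well above background on any array and bears on none of this. The Osm difference touches Fr2 and therefore the slide.

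**Figure D2:**
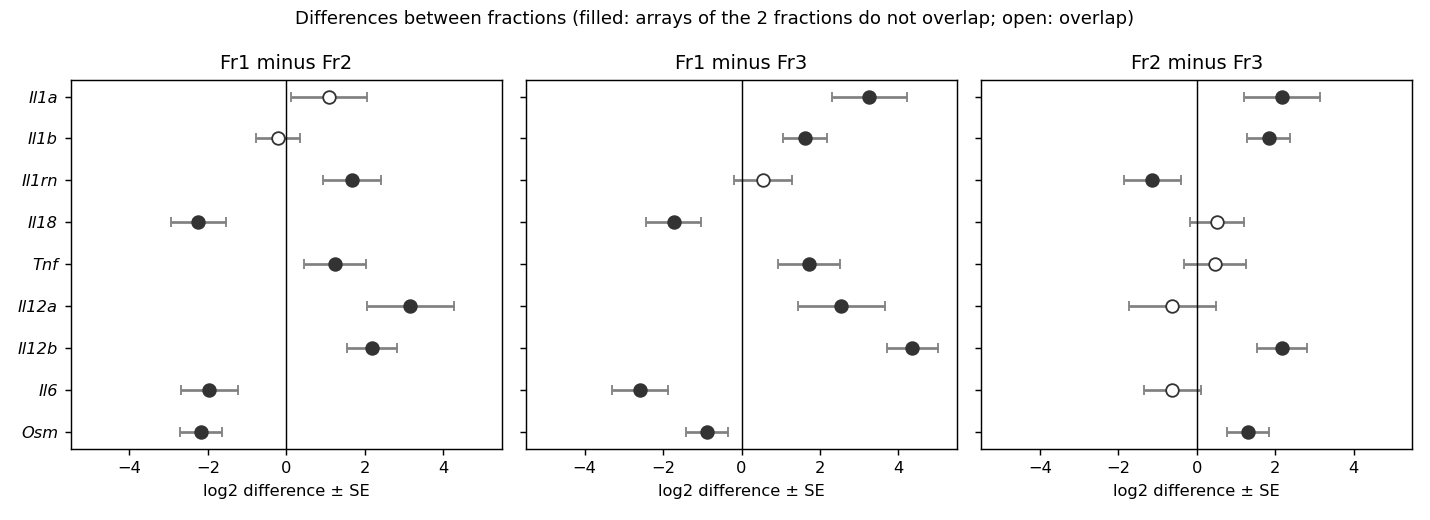
Differences in log2 level for the 9 tested members in the comparisons Fr1 minus Fr2, Fr1 minus Fr3 and Fr2 minus Fr3, with bars of 1 standard error from limma over 6 arrays. Filled points are genes whose arrays do not overlap between the 2 fractions; Il12b has the highest value for Fr1 minus Fr3, 4.35, and Il6 the lowest, −2.59.

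For Fr1 against Fr2, 5 of the 9 tested members had an unadjusted p under 0.05, against 9.79% of all genes. Il12a and Il12b were higher in Fr1 (3.33% of all genes in that direction), and Osm, Il18 and Il6 lower (6.45%). The arrays did not overlap for 7 members, against 44.8% of all genes, with 4 higher in Fr1 (22.6% of all genes) and 3 lower (22.3%). The members' median difference was 1.09, against 0.034 over all genes. For Fr1 against Fr3, 5 members had an unadjusted p under 0.05, against 8.11% of all genes. Il12b, Il1a and Il1b were higher in Fr1 (2.78% of all genes in that direction), and Il6 and Il18 lower (5.32%). The arrays did not overlap for 8 members, against 35.7% of all genes, with 5 higher in Fr1 (13.8%) and 3 lower (21.9%), and the median difference was 1.62, against −0.049. For Fr2 against Fr3, 3 members had an unadjusted p under 0.05, against 8.90% of all genes, and all 3 (Il12b, Il1b and Osm) were higher in Fr2 (4.83% of all genes in that direction). There the arrays did not overlap for 5 members, against 42.1%, with 4 higher in Fr2 (19.5%) and 1 lower (22.7%), and the median difference was 0.52, against −0.075. Under the normexp correction 17 of the 27 member differences were smaller by over 1.5 times and 0 changed sign. Its offset shrinks the differences of dim probes by construction. With it, Il1a Fr1 minus Fr3 was 1.72, and Osm Fr1 minus Fr2 was −2.15. The 3 comparisons share arrays, and each count stands for its own comparison.

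The probes of a member did not always move alike. Of the 5 members with over 1 probe, Il1b and Tnf changed the sign of a comparison when all their used probes were averaged: Il1b Fr1 minus Fr2 was then 0.015 and Tnf Fr2 minus Fr3 −0.065.

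**Figure D3:**
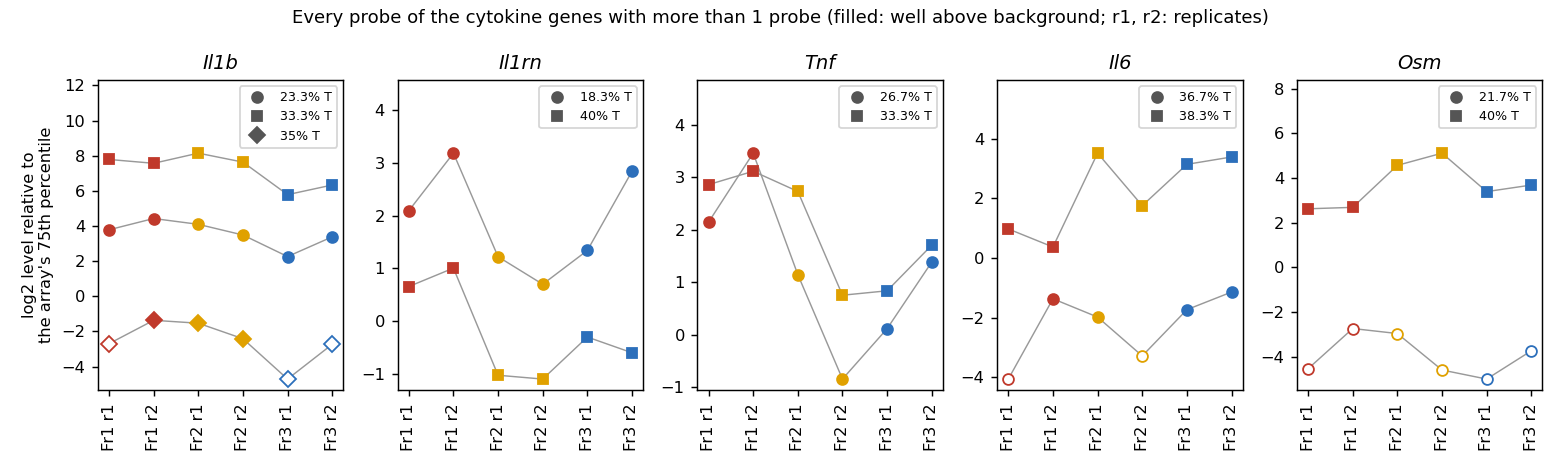
Levels of every probe of the members with over 1 probe, by array, as log2 intensity relative to the array's 75th percentile, from Fr1 to Fr3. Each line is a probe, with its T content in percent, and open points are not well above background; lines join arrays for the eye only, and levels of different probes are not comparable.

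The share of T in a probe moved with the replicate in Fr1 and Fr3, and with the fraction. Over genes whose probe had over 35% T, the median of replicate 2 minus replicate 1 was −0.72 in Fr1, −0.0062 in Fr2 and −0.94 in Fr3. With at most 30% T the same median was 0.43 in Fr1, 0.13 in Fr2 and 0.56 in Fr3. Between fractions, probes with over 35% T had a median of 0.074 for Fr1 minus Fr2, 0.54 for Fr1 minus Fr3 and 0.56 for Fr2 minus Fr3, against 0.065, −0.17 and −0.28 with at most 30% T. The Osm difference of 1.30 for Fr2 minus Fr3 stands beside that 0.56, and the Il6 difference of −2.59 for Fr1 minus Fr3 has the opposite sign to the 0.54. Among the members, the Osm probe has 40% T, the Il6 probe 38.3% and the Il12a probe 15%. The part of base content in the members' differences was not tested beyond a fit on probes with at most 30% T. That fit held 6 members and cannot bear on Il6, Osm or Il18, whose used probes all had over 30% T.

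In the 250 bases before the start site, RefSeq promoters (GRCm38.p6) were at hand for 8 members in 11 windows, and the letters of 4 motifs were searched on both strands. The NF-kB consensus, bound by the factor that IL-1 and TNF receptors switch on, was found in Il6 only, from −44 to −35, against 7.25% of all promoters in the table. The AP-1 motif TGANTCA was found in Il1a, Il1rn and Il6, against 6.75% of promoters. The C/EBP motif TTNNGNAA was found in Il1a, Il1b, Il1rn, Il6 and Tnf, against 36.8%. The core of the interferon-stimulated response element (ISRE) was found in none, against 2.98%. Il12a, Il12b and Il18 held no match. A match is a run of letters, not a site of binding, and no match says only that these letters are not in the window. The 100 bases before the start are printed for the genes lowest in Fr3 (Il1a, Il1b, Il12b), for Tnf, and for Il6, which ran the other way, with matches in capitals.
Il1a, chr2:129309973-129310072, minus strand: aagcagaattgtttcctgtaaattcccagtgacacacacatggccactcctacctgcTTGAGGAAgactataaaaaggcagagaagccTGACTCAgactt
Il1b, chr2:129371140-129371239, minus strand: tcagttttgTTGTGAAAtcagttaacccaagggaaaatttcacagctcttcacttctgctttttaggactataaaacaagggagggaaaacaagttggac
Tnf, chr17:35202008-35202107, minus strand: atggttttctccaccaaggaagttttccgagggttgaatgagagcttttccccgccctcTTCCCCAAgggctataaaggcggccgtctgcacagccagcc
Il12b, chr11:44399963-44400062, plus strand: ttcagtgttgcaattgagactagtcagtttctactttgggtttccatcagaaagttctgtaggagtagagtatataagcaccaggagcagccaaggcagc
Il6, chr5:30013014-30013113, plus strand: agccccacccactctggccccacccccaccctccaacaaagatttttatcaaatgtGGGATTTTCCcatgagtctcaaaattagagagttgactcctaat

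Among genes that process the IL-1 precursors, 15 of 16 were tested, and in Fr1 11 of them had a mean below Fr2 and 10 a mean below Fr3. Limma's test called 0 of the 15 after adjustment in any comparison. In Fr1, 4 were lower at an unadjusted p under 0.05 against Fr2 (6.45% of all genes in that direction) and 6 against Fr3 (5.32%), with none higher in either; in Fr2, 1 was higher (4.83% of all genes in that direction) and 2 lower (4.07%) against Fr3. Both Fr1 counts hold Mefv, and the count against Fr3 also holds Nlrp1a. Each has another used probe of the opposite sign in those comparisons. The list's median difference was −0.87 for Fr1 minus Fr2 and −0.76 for Fr1 minus Fr3. Casp4, which senses intracellular lipopolysaccharide, read −0.04 and 0.24 in Fr1, 2.48 and 2.03 in Fr2, and 2.86 and 2.66 in Fr3. Both Fr1 arrays were well below the other 4, and Fr1 minus Fr3 was −2.66 ± 0.53, with a limma adjusted p of 0.242. Casp1, the enzyme that cuts pro-IL-1 beta and pro-IL-18, read 1.17 and 1.32 in Fr1, 2.68 and 1.91 in Fr2, and 2.83 and 2.45 in Fr3. Nlrp3, the sensor of the best known inflammasome, read 4.84 and 5.69 in Fr1, 4.28 and 4.76 in Fr2, and 3.79 and 4.81 in Fr3, and it did not follow Casp1 and Casp4. P2rx7, the ATP receptor upstream of Nlrp3, was not well above background on either Fr1 array, and Fr3 was at least 3.30-fold higher than Fr1 (limma adjusted p 0.298).

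Nek7, a kinase that binds Nlrp3, read −1.34 and −2.60 in Fr1, 0.13 and 0.08 in Fr2, and −1.13 and −0.65 in Fr3, with the lower Fr1 array not well above background. Txnip, a thioredoxin-binding protein, read 0.26 and −0.55 in Fr1, 1.82 and 2.08 in Fr2, and 0.42 and 0.82 in Fr3. Both genes had their highest arrays in Fr2, with Fr1 minus Fr2 at −2.08 ± 0.63 for Nek7 (limma adjusted p 0.407) and −2.10 ± 0.57 for Txnip (adjusted p 0.370). Of the 3 used Nek7 probes, 1 had the opposite sign in each comparison with Fr3, so the order of Nek7 against Fr3 is uncertain. Naip2, which detects bacterial secretion system proteins, has close paralogs and was likewise highest in Fr2, at −0.17 and −1.27 in Fr1, 1.73 and 0.92 in Fr2, and −2.40 and 0.04 in Fr3. Nlrp1a read 6.44 and 7.60 in Fr1, 7.86 and 7.12 in Fr2, and 8.91 and 9.55 in Fr3. It has near-identical paralogs, and its other probe used had the opposite sign in both comparisons with Fr3, so its order is uncertain.

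**Figure D4:**
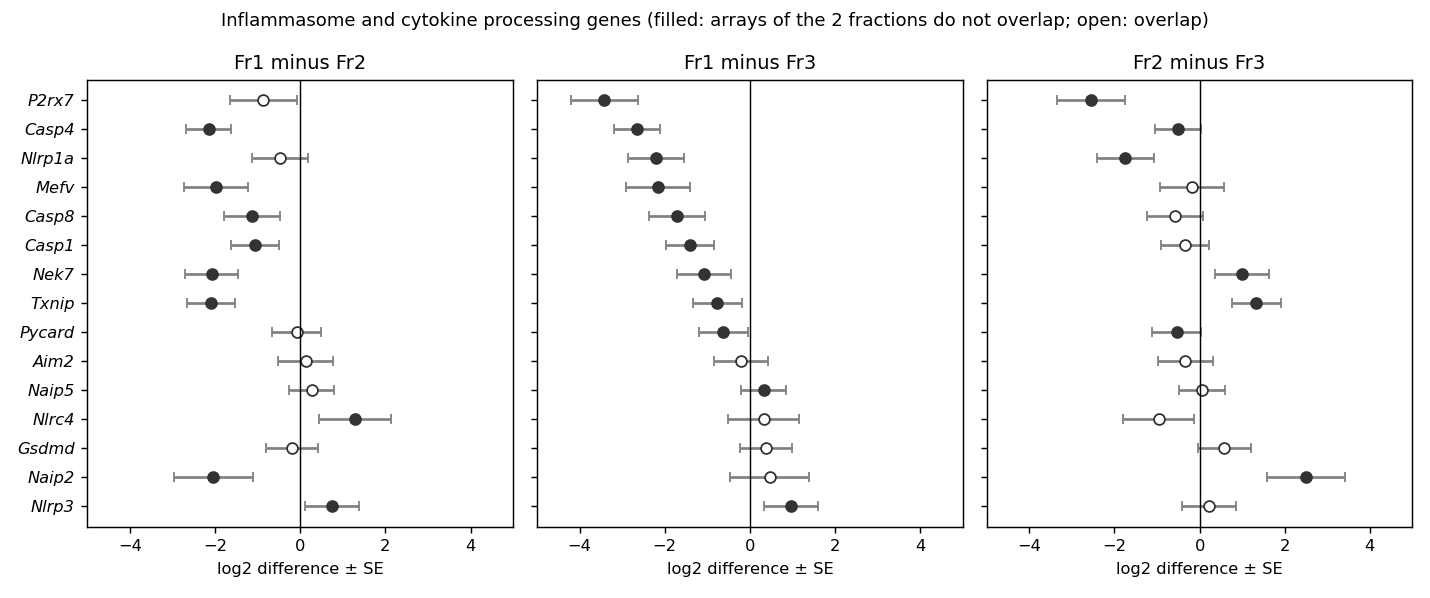
Differences in log2 level for 15 genes of inflammasomes and cytokine processing in the comparisons Fr1 minus Fr2, Fr1 minus Fr3 and Fr2 minus Fr3, with bars of 1 standard error from limma over 6 arrays. Filled points are genes whose arrays do not overlap between the 2 fractions; Casp4 and Casp1 lie below 0 in both comparisons of Fr1 and Nlrp3 above 0.

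Receptors, ligands and antagonists of the IL-1 and IL-18 group were tested for 6 of 12 genes, with 0 called after adjustment in any comparison. An unadjusted p under 0.05 was found for 1 of the 6 in Fr1 against Fr2, 1 in Fr1 against Fr3 and 3 in Fr2 against Fr3. Of all genes, 9.79%, 8.11% and 8.90% had one. The ligand gene Il33 was the 1 for Fr1 against Fr3 and was among the 3 for Fr2 against Fr3. Il1rl1, the IL-33 receptor, read −0.94 and −1.56 in Fr1, 1.57 and 2.52 in Fr2, and −1.50 and −0.30 in Fr3, so that both Fr2 arrays lay above the rest. Its Fr1 minus Fr2 difference was −3.30 ± 0.68, with a limma adjusted p of 0.309. Il1r2, a decoy receptor that binds IL-1 without signalling, read 2.76 and 3.30 in Fr1, 2.38 and 4.53 in Fr2, and 1.21 and 1.21 in Fr3. Both Fr3 arrays lay below the rest, as they did for Il1a and Il1b, and Fr1 minus Fr3 was 1.82 ± 0.79 (limma adjusted p 0.625). Il33, the ligand of Il1rl1, was well above background in Fr3 alone, at least 1.53-fold above Fr2. Il18rap, a chain of the IL-18 receptor, read −0.29 and −1.17 in Fr1, −5.10 and −1.31 in Fr2, and −5.07 and 0.41 in Fr3, a spread within Fr2 and Fr3 that exceeds any difference between fractions; 1 array each of Fr2 and Fr3 was not well above background.

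Partners and receptors of the IL-6, IL-12 and TNF families were tested for 13 of 17 genes, with 0 called after adjustment and 1, 2 and 2 of the 13 at an unadjusted p under 0.05 in the same order of comparisons, which is near the 9.79%, 8.11% and 8.90% of all genes. Lifr, a receptor chain that pairs with gp130 and binds LIF, read 0.85 and −0.027 in Fr1, 2.97 and 2.38 in Fr2, and 3.91 and 4.05 in Fr3. Fr1 minus Fr3 was −3.57 ± 0.59, with a limma adjusted p of 0.178, and no fractions overlapped. Il6st, which encodes gp130, read 0.85 and 0.89 in Fr1, 0.80 and −0.23 in Fr2, and 2.32 and 1.81 in Fr3, with both Fr3 arrays on top. Fr3 thus had the highest Il6st and Lifr arrays, and Fr1 the lowest Lifr arrays, without passing the test. Lif, a cytokine that binds the same receptor pair, read 1.16 and −0.16 in Fr1, −1.63 and −1.21 in Fr2, and −1.21 and −3.76 in Fr3, higher in Fr1 than in the other 4 arrays. Fr3 replicate 2 was not well above background for Lif, so its measured Fr1 minus Fr3 difference of 2.98 ± 0.94 (limma adjusted p 0.456) rests in part on a signal with no measured level. Ltb, a TNF family ligand of lymphoid tissue, read 1.81 and 0.53 in Fr1, 1.29 and 1.80 in Fr2, and 0.40 and −4.07 in Fr3, so that Fr3 replicate 2 stood far below the rest and was not well above background. Il12rb2, a chain of the IL-12 receptor, read 0.59 and 0.19 in Fr1, −0.33 and −0.27 in Fr2, and 0.17 and −1.23 in Fr3.

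Signalling genes of the NF-kB and JAK-STAT lists were tested for 27 of 29, with 0 called after adjustment and 1, 1 and 0 of the 27 at an unadjusted p under 0.05, below the 9.79%, 8.11% and 8.90% of all genes. Irf8, a factor needed for conventional dendritic cells of the cDC1 type and for Il12b transcription, read 1.33 and 0.57 in Fr1, −0.23 and −1.26 in Fr2, and −0.86 and −0.70 in Fr3. Both Fr1 arrays were above the other 4, and Fr1 minus Fr3 was 1.73 ± 0.62, with a limma adjusted p of 0.536. Tnfaip3, an inhibitor of NF-kB that TNF and IL-1 induce, read 5.15 and 4.67 in Fr1, 5.08 and 4.36 in Fr2, and 3.56 and 3.87 in Fr3. Its Fr3 arrays were the lowest, as for Il1a and Il1b. The Tnfaip3 probe has 40% T, and its differences were 1.19 for Fr1 minus Fr3 and 1.00 for Fr2 minus Fr3. These stand beside medians of 0.54 and 0.56 for probes with over 35% T. Zfp36, which destabilises Tnf messenger RNA, read 4.67 and 4.74 in Fr1, 5.99 and 4.71 in Fr2, and 6.36 and 5.74 in Fr3, with Fr1 minus Fr3 at −1.34 ± 0.64 (limma adjusted p 0.625). Irak1, a kinase of the IL-1 receptor complex, read 2.32 and 1.96 in Fr1, 3.57 and 3.07 in Fr2, and 3.35 and 3.13 in Fr3. Jak1, a kinase of gp130 signalling, read 2.20 and 1.53 in Fr1, 2.71 and 3.28 in Fr2, and 2.68 and 3.10 in Fr3. Irak1 and Jak1 both had their 2 lowest arrays in Fr1. The NF-kB subunit genes Nfkb1 and Relb were lower in Fr2 than in Fr3 on average, with differences of −1.56 ± 0.75 for Nfkb1 (adjusted p 0.599) and −1.73 ± 1.06 for Relb (adjusted p 0.616), and the Relb arrays overlapped.

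Over 13097 genes with an ordinary symbol, the patterns most like Il12b were those of Mreg, Kansl1, Ifnb1, Clec9a and Gzma, by the root mean square distance between the levels on the 6 arrays, each gene centred on its own mean. The distances were 0.37 for Mreg and 0.45 for Kansl1, and 0.65, 0.71 and 0.74 for the others. Clec9a, a receptor typical of cDC1 cells, read −1.24 and −0.28 in Fr1, −5.04 and −1.89 in Fr2, and −5.02 and −4.45 in Fr3. Its levels on Fr2 replicate 1 and both Fr3 arrays were under the dimmest signal that counted as well above background there, so they have no order among themselves. The same held for Ifnb1 on all 4 arrays of Fr2 and Fr3 and for Mreg on Fr3 replicate 2, as it did for Il12b itself in Fr3, so these distances and their ranks rest in part on signals at background.

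Markers of other cells also differed between the fractions, and their part in the cytokine values was not tested. Of 12 neutrophil markers, 11 were tested, and their summed linear levels were 245 and 304 in Fr1, 676 and 723 in Fr2, and 145 and 143 in Fr3. Of the 11, 8 were higher in Fr2 than in Fr1 without overlap (22.3% of all genes) and 9 higher than in Fr3 (19.5%), which stands beside the Osm and Il1rl1 levels in Fr2. The 8 eosinophil markers summed to 19.6 and 20.2 in Fr1, 79.9 and 157 in Fr2, and 7.32 and 12.5 in Fr3. The 6 monocyte markers summed to 32.6 and 11.8 in Fr1, 67.5 and 69.3 in Fr2, and 5.53 and 11.2 in Fr3, with 5 of 6 higher in Fr2 than in Fr1 without overlap (22.3% of all genes) and 3 of 6 higher in Fr2 than in Fr3 (19.5%). Of 11 T and NK cell markers, 6 were tested, with sums of 19.1 and 15.2 in Fr1, 8.19 and 10.1 in Fr2, and 7.56 and 4.97 in Fr3, and Gzmb was not well above background in Fr2 or Fr3. Without overlap, 2 of the 6 were higher (22.6% of all genes) and 1 lower (22.3%) in Fr1 against Fr2. Against Fr3, 2 were higher in Fr1 (13.8%) and 1 lower (21.9%). Cd3e overlapped between the fractions, Cd2 read −0.59 and −2.53 in Fr1, 0.17 and −0.31 in Fr2, and 0.92 and 1.15 in Fr3, and Gzma and Klrb1c made up most of the sum in Fr1. Immediate early genes that digestion of tissue can induce were higher without overlap in Fr3 than in Fr1 for 10 of 13 (21.9% of all genes) and in Fr2 than in Fr1 for 7 of 13 (22.3%). The sums of these 13 were 502 and 570 in Fr1, 965 and 516 in Fr2, and 885 and 733 in Fr3, beside the Il6 levels that were lowest in Fr1. The 6 fibroblast markers summed to 4.05 and 1.44 in Fr1, 8.08 and 3.89 in Fr2, and 3.41 and 3.10 in Fr3. Without overlap, 3 were higher in Fr2 than in Fr1 (22.3%) and 2 in Fr3 than in Fr1 (21.9%), with 0 the other way. Of 8 keratinocyte and epithelial markers, 5 were tested. Without overlap, 2 were higher (22.3%) and 1 lower (22.6%) in Fr2 than in Fr1. Against Fr1, 2 were higher in Fr3 (21.9%) and 0 lower.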

How the data were processed

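Total RNA was amplified by the Ovation Pico WTA System V2 and the cDNA labelled with Cy3, per the labels' protocols. Spot intensity values come from the authors' runs of Agilent Feature Extraction 11.5.1.1 (build mm9), per the file headers. The value table that the authors deposited is in log2 units, with column medians of −2.44 to −2.25; its Pearson correlation with the scanner values, across probes, was 0.999873 or higher on each array. From the intensities, log2 of the processed signal minus each array's 75th percentile was taken, after averaging the spots of a probe and leaving out 4 probes with an outlier flag. Probes well above background on the 2 arrays of any 1 fraction were used (27867 probes), and the brightest of these stood for its gene. A RefSeq table gave current names, by accession for 33890 probes, by symbol for 9468 and by synonym for 488; the other 12759 have the files' names.

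The test was limma 3.58.1, run in R 4.3.3 (3 group means over 6 arrays, moderated variances, two-sided tests, Benjamini-Hochberg adjustment over all genes), and files were read with Python 3.11.15. The script was tested on simulated data. Standard errors pool the spread over the 3 fractions, and the number of arrays limits the precision. Named are all members and, from each of 4 pathway lists, up to 3 genes with the smallest p in a comparison, with the 5 genes most like the member of smallest F-test p. Casp1, Nlrp3 and the markers were named after their values were seen. The members and lists were chosen with earlier results of these data known. The alternatives were a replicate block, normexp with an offset of 50, quantile scaling, the authors' table, 2 other filters on dim probes, the mean of a gene's probes, probes with at most 30% T, a fit of the 2 fractions compared, a fit over probes (added after seeing the data), and leaving out each array.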

Additional observations from a re-analysis of the deposited data

How the results depend on the processing

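No member was called under any alternative except Il12b for Fr1 minus Fr3 without Fr3 replicate 1 (4.07, limma adjusted p 0.0263, against up to 0.615 elsewhere). In that setting, which leaves Fr3 a lone array assumed to vary like the other fractions, 7.10% of all genes were called for Fr1 minus Fr3, among them Lifr (−3.64), Lif (4.26), Ltb (5.24) and P2rx7 (−4.08), and Ltb (5.62) for Fr2 minus Fr3. Leaving out each array gave 0 to 1 members with an adjusted p under 0.05 for Fr1 minus Fr3, and 0 to 0 for the other 2 comparisons and the F-test. At an unadjusted p under 0.05 it gave 2 to 6 for Fr1 minus Fr2 (3 without Fr1 replicate 1, 2 without Fr1 replicate 2 and 3 without Fr2 replicate 1), 2 to 5 for Fr1 minus Fr3 (2 without Fr1 replicate 2 and 3 without Fr3 replicate 1) and 1 to 2 for Fr2 minus Fr3 (1 without Fr2 replicate 1). Without 1 array, 14 of the 27 member differences reversed or moved by over 1.5 times, Il1rn Fr2 minus Fr3 among them (−1.88 to −0.38), and with normexp 17 were smaller by over 1.5 times and 0 reversed. Of these 27, 20 kept their direction under each of the 16 alternatives that could be run for them. Many of these runs could not move a given difference, so they are no check of its direction. A replicate block, a fit of the 2 fractions compared and leaving out an array of the other fraction change only the standard error. For a gene with a lone used probe, averaging its probes also leaves the difference as it was. Without 1 array, Il1a Fr1 minus Fr2 ranged from −0.36 to 2.54, Il1b Fr1 minus Fr2 from −0.47 to 0.042, Il1rn Fr1 minus Fr3 from −0.20 to 1.30, Il6 Fr2 minus Fr3 from −1.51 to 0.25, Tnf Fr2 minus Fr3 from −0.52 to 1.46, Il18 Fr2 minus Fr3 from −0.16 to 1.20, Il12a Fr2 minus Fr3 from −1.27 to 0.028 and Il18rap Fr1 minus Fr3 from −1.14 to 4.34. With the mean of a gene's probes, Il1b Fr1 minus Fr2 was 0.015, Tnf Fr2 minus Fr3 −0.065 and Nlrp1a Fr2 minus Fr3 0.0027. With at most 30% T, Il1b Fr1 minus Fr2 was 0.31 and Tnf Fr2 minus Fr3 −0.60. The cause was not tested. With the replicate number as a block, 0 members passed the adjusted test and 5, 6 and 4 had an unadjusted p under 0.05 in Fr1 minus Fr2, Fr1 minus Fr3 and Fr2 minus Fr3. Deviations of same-numbered arrays correlated at 0.118 (Fr1 with Fr2), 0.433 (Fr1 with Fr3) and 0.0455 (Fr2 with Fr3), and the labels do not say that a number marks the same experiment in each fraction, so the block is given as an alternative only. Signal over background limits Il18 in Fr1 and Il12b in Fr3.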
